A study of Mus musculus with 12 samples.

Results

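The genes described here are 33 genes of sterol and fatty acid synthesis, chosen by name from the 54532 genes of the deposited expression table. Each name matched 1 gene, and all 33 were among the 15122 genes that passed the filter on low counts. The sterol branch holds 18 enzymes from acetoacetyl-CoA to cholesterol (Acat2, Hmgcs1, Mvk, Pmvk, Mvd, Idi1, Fdps, Fdft1, Sqle, Lss, Cyp51, Tm7sf2, Msmo1, Nsdhl, Hsd17b7, Ebp, Sc5d and Dhcr7). The fatty acid branch holds 9 enzymes (Acly, Acss2, Acaca, Fasn, Elovl6, Scd1, Scd2, Fads1 and Fads2). Another 4 genes encode the sterol-sensing machinery (Srebf1, Srebf2, Scap and Insig1), and 2 encode proteins that move cholesterol (Stard4 and Abca1).

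RNA was sequenced from the mouse myoblast line C2C12, whose cells can fuse into myotubes, in 4 groups of 3 libraries called biological replicates in the labels. Cells received 30 nM of siRNA for 48 h. The groups are named for what was silenced, with a control siRNA in siCONTROL and loss of Keap1 in siKEAP1, Ccnf in siCCNF and both genes in siKEAP1/siCCNF. KEAP1 is the substrate adaptor of a CUL3 ubiquitin ligase that marks the antioxidant transcription factor NRF2 for degradation, and CCNF (cyclin F) is the substrate adaptor of an SCF ubiquitin ligase, so that the design asks how loss of either adaptor, and of both, changes gene expression. All groups are the same cell line, grown in 5% serum according to the labels, whereas the methods of the study give a higher share. Which siRNA against Ccnf was sequenced, and whether double-depleted cells received 30 nM in all or of each siRNA, is not given in the sources used here.

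Cholesterol and fatty acids are both built in the cytosol from acetyl-CoA. Enzymes of both branches are activated by the SREBP transcription factors, which are made from Srebf1 and Srebf2 as membrane-bound precursors. When sterols are scarce the escort SCAP carries the precursors to the Golgi for cleavage, and when sterols are plentiful INSIG proteins hold SCAP in the endoplasmic reticulum. The liver X receptors respond to oxidised sterols and activate genes of cholesterol export such as Abca1. Dividing myoblasts use these pathways to supply membrane lipids.

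The libraries held between 18464209 and 37743198 counts, and every siCCNF library was deeper than every siCONTROL library. Keap1 was at 14.4% of its siCONTROL mean after siKEAP1, at 97.0% after siCCNF and at 27.5% after siKEAP1/siCCNF. Ccnf was at 73.2%, 25.3% and 30.2% respectively. All 5 myoblast markers examined (Myod1, Myf5, Des, Cdh15 and Pax7) were detected in each group, and all 5 were lower after each depletion. Of 7 adipocyte markers, Plin1, Cfd, Cidec and Adipoq had at most 3 counts in every library, and the summed level of the list was 55.5 to 60 CPM (counts scaled to library size) in siCONTROL, 79.7 to 84.5 after siKEAP1, 26.2 to 32.3 after siCCNF and 34.8 to 42.0 after siKEAP1/siCCNF. Most of each adipocyte sum was Cebpa, with means of 48.9, 50.1, 19.7 and 26.6 CPM in these groups in that order. The first siCONTROL library stands apart from its group. It was the highest of the 3 for 16 of 18 sterol enzymes, by a median of 0.43 on the log2 scale over the other two, against 42.7% of all genes tested. Its 7 markers of differentiating muscle summed to 158 CPM, against 71.7 and 74.0 in the other two. Its deviation from the group also fell with gene length, as did that of the third siKEAP1/siCCNF library (correlation with log2 length across genes of -0.305 and -0.276). Results are therefore given below with and without these libraries where that changes a call. In bulk RNA, fewer cells of a type and less RNA per cell cannot be told apart.

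In siCONTROL cells the fatty acid branch was expressed at a higher level per transcript length than the sterol branch. The median FPKM, which scales fragments to library size and gene length, was 32.8 over the 9 fatty acid genes and 11.5 over the 18 sterol genes. Scd2, a stearoyl-CoA desaturase, was the highest of all 33 members at 330.4 ± 49.0 FPKM (SD, n = 3), followed by its paralog Scd1 at 88.0 ± 9.12. Srebf2 (63.6 ± 2.35) and the desaturase gene Fads2 (61.6 ± 7.41) came next and did not differ beyond their spread. Hmgcs1, HMG-CoA synthase, was the highest sterol enzyme at 32.0 ± 5.99 FPKM, a level close to those of Cyp51 (27.1 ± 5.88) and Acat2 (25.4 ± 4.91) relative to their spread. The lowest members were Fdps at 0.738 ± 0.0918 and Abca1 at 0.569 ± 0.179 FPKM. Fdps shares 26.7% of its annotated exonic bases with the gene Gm43738 on the same strand, and how reads that fall in both were assigned is not given in the sources used here, so its low level is uncertain.

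Depletion of KEAP1 lowered 9 of the sterol enzymes and raised none of them. Of 18 sterol genes, 9 fell and 0 rose at an adjusted p under 0.05 (quasi-likelihood test of edgeR, p-values adjusted by Benjamini-Hochberg), where 20.2% of all genes tested fell and 20.4% rose. No sterol gene was higher at an unadjusted p under 0.05 either, and DESeq2 and limma also called 0 higher. The genes that fell are spread along the pathway. Acat2 and Hmgcs1 make HMG-CoA, Mvk phosphorylates mevalonate, Fdps makes farnesyl diphosphate, Lss closes the ring to lanosterol, and Cyp51, Hsd17b7, Sc5d and Dhcr7 modify the ring system on the way to cholesterol. The 9 others, among them Sqle, Idi1 and Fdft1, had log2 fold changes from -0.35 (Pmvk) to 0.029 (Mvd). The median over the branch was -0.33, beside -0.012 over all genes tested, and -0.20 without the first siCONTROL library.

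Cyp51, lanosterol demethylase (chr5:4081145-4104746 on GRCm38), was at 150.2, 111 and 101 CPM in the 3 siCONTROL libraries and at 81.0, 70.0 and 70.6 CPM after siKEAP1. The groups did not overlap, and the first siCONTROL library was the highest. The log2 fold change was -0.71 ± 0.12 (SE), with an edgeR adjusted p of 0.000426. Mvk, mevalonate kinase, went from 43.3, 32.8 and 29.6 CPM to 22.5, 19.8 and 21.4 CPM, a log2 fold change of -0.73 ± 0.13 (edgeR adjusted p = 0.000688). Its groups were separate as well. Dhcr7, a reductase of the final part of the pathway, stood at 41.0, 31.8 and 29.3 CPM in siCONTROL and at 24, 18.5 and 20.7 CPM after siKEAP1, again without overlap (log2 fold change -0.70 ± 0.13, edgeR adjusted p = 0.000897). For Hmgcs1 the siCONTROL values were 180.2, 133 and 132 CPM and the siKEAP1 values 98.7, 91.9 and 86.9 CPM (-0.68 ± 0.10, edgeR adjusted p = 0.000168). Every siKEAP1 library lay below every siCONTROL library. Lss, lanosterol synthase, fell from 46.3, 36.2 and 37.7 CPM to 32.4, 26.1 and 26.0 CPM (-0.51 ± 0.11, edgeR adjusted p = 0.00238).

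Fdps, farnesyl diphosphate synthase, gave the largest log2 fold change of the branch at -1.09 ± 0.25 (edgeR adjusted p = 0.00348), at levels of 3.27, 3.42 and 2.70 CPM in siCONTROL and 1.95, 0.932 and 1.54 CPM after siKEAP1. The 2 groups did not overlap, but its counts are few and its reads can be shared with Gm43738. Gm43738 itself had 0 counts in every library of these 2 groups, which does not tell how shared reads were assigned. Acat2, the cytosolic thiolase that condenses acetyl-CoA, fell from 79.2, 60.4 and 55.4 CPM to 42.8, 42.1 and 43.4 CPM (-0.61 ± 0.12, edgeR adjusted p = 0.00141). The other 2 genes that fell, Hsd17b7 (-0.34 ± 0.11) and Sc5d (-0.28 ± 0.08), moved less, and the call for Hsd17b7 (edgeR adjusted p = 0.0209) was lost without the second siCONTROL, the first siKEAP1 or the second siKEAP1 library, with an adjusted p between 0.0577 and 0.0755. Without the first siCONTROL library, 9 sterol genes fell after siKEAP1 and 1 rose, Mvd (log2 fold change 0.33, edgeR adjusted p = 0.0441). Without the third siKEAP1/siCCNF library, which is in neither group but shares in the fit, Ebp (-0.21) and Nsdhl (-0.31) passed as well (edgeR adjusted p = 0.0333 and 0.0467).

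**Figure D1:**
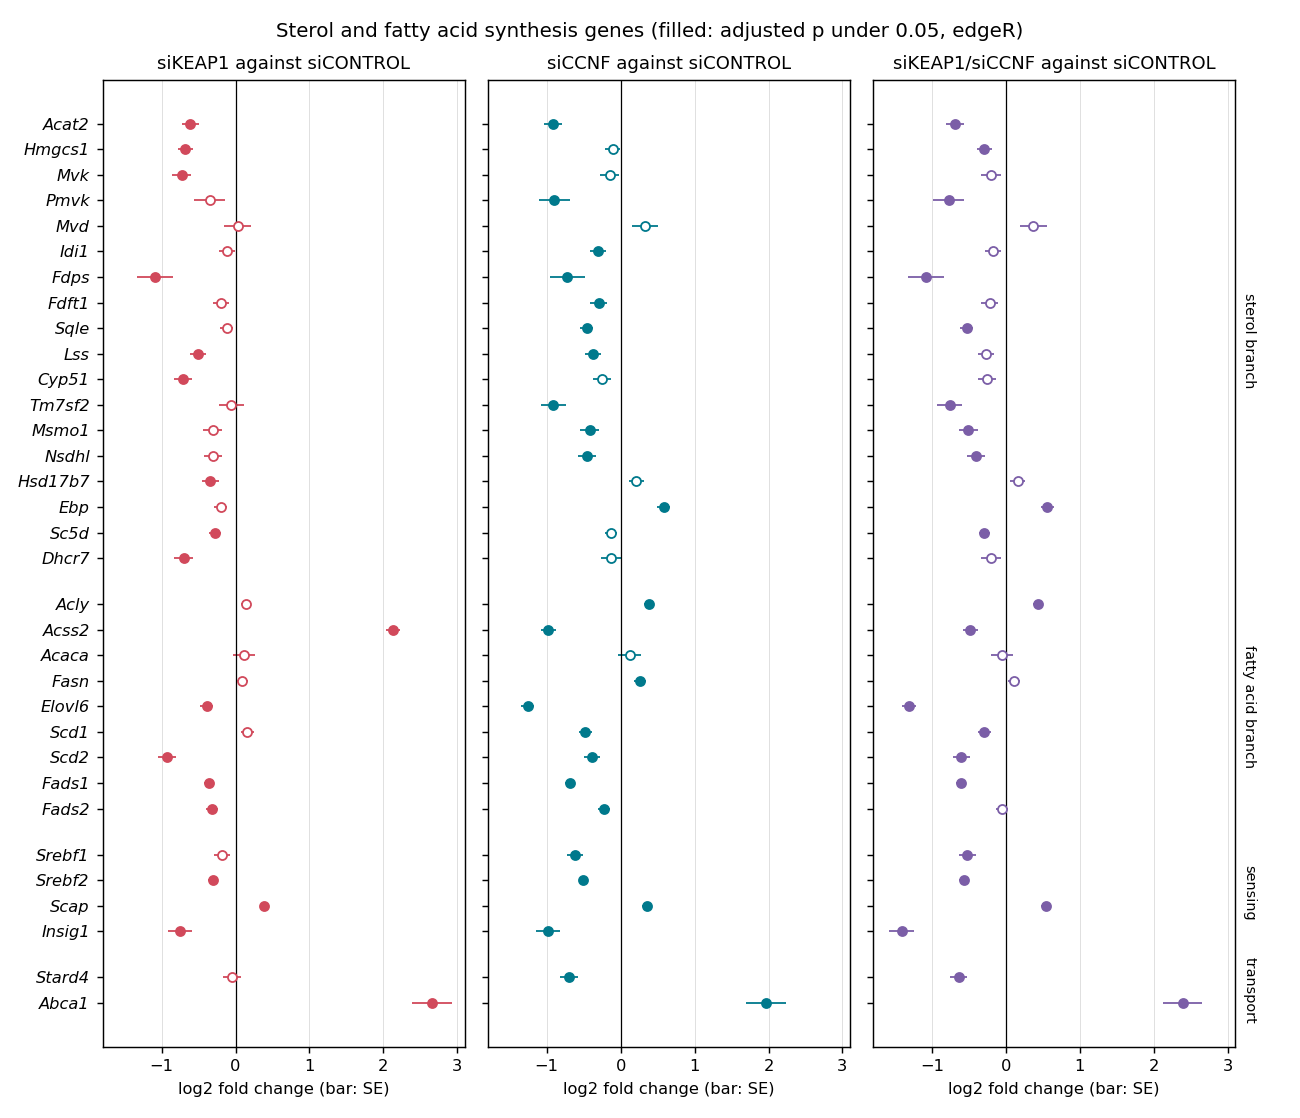
Log2 fold change of each of the 33 members (rows, grouped by role in pathway order) after siKEAP1, siCCNF and siKEAP1/siCCNF against siCONTROL, with the SE from edgeR as bars. Filled points passed an adjusted p under 0.05; most filled points lie left of 0, while Abca1 lies to the right in all 3 panels and Acss2 is at 2.13 after siKEAP1 and below 0 in the other panels.

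Promoter sequence is shown for 4 sterol enzymes so that the letters before their starts can be compared. Hmgcs1, Mvk and Lss fell after siKEAP1, and Ebp is the sterol enzyme that rose after siCCNF. Of the 33 members, 26 have an entry in the RefSeq promoter table of GRCm38.p6, which holds 27025 genes. The 250 bases before each start were searched on both strands for TCACNCCAC, a form of the sterol regulatory element bound by SREBPs, and for CCAAT, the core bound by NF-Y, a factor that acts beside SREBPs at many lipid genes. TCACNCCAC was found before 1 of 26 members, Hmgcs1, and before 1.22% of all genes in the table. CCAAT was found before 19 of 26 members (73.1%) and before 37.5% of all genes. The 19 include Mvk, Lss, Hmgcs1, Cyp51 and Ebp, which moved in different directions, and leave out Acat2, Elovl6, Fads2 and Abca1. A match is only a match of letters, and no binding was measured here. Capitals mark TCACNCCAC and CCAAT matches, where ATTGG is CCAAT read on the other strand, and each line gives the bases before the start in the direction of the gene.
Hmgcs1 (chr13:119690101-119690350, plus strand): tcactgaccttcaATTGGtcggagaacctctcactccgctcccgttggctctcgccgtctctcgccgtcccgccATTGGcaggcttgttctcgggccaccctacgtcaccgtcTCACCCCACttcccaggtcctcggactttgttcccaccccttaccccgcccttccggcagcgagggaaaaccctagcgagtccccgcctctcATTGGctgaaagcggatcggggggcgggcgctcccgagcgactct
Mvk (chr5:114444019-114444268, plus strand): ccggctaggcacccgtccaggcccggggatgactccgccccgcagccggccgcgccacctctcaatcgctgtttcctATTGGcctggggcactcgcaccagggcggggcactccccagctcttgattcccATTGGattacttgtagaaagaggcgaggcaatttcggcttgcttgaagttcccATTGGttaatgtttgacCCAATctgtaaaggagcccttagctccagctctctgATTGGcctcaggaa
Lss (chr10:76531355-76531604, plus strand): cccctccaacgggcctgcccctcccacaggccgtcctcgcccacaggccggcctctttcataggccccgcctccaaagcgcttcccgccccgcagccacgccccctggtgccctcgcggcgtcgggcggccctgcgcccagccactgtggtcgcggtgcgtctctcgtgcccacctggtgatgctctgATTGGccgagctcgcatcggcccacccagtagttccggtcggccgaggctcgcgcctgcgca
Ebp (chrX:8193513-8193762, minus strand): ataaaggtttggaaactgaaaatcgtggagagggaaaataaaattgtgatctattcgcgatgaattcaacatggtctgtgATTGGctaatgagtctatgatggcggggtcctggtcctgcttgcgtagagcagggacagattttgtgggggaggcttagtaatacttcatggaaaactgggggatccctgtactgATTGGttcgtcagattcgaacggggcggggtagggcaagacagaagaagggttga
The Hmgcs1 stretch holds 3 CCAAT matches and its TCACNCCAC match lies 137 to 129 bases before the start, Mvk holds 5 CCAAT matches, Ebp holds 2 and Lss holds 1.

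Depletion of CCNF also lowered more sterol enzymes than it raised, with other genes leading. After siCCNF, 10 of 18 sterol genes fell and 1 rose in edgeR's test, where 25.5% of all genes tested fell and 22.5% rose, and the branch median was -0.30 beside 0.013 over all genes, and -0.17 without the first siCONTROL library. Acat2 went to 35.4, 34.5 and 33.1 CPM, below every siCONTROL and every siKEAP1 library, a log2 fold change of -0.92 ± 0.12 against siCONTROL (edgeR adjusted p = 4.07e-05). Tm7sf2, a sterol reductase, was at 12.8, 9.28 and 7.32 CPM in siCONTROL and at 5.05, 5.44 and 5.21 CPM after siCCNF (-0.91 ± 0.17, edgeR adjusted p = 0.000637), whereas after siKEAP1 it stood at 10.5, 8.87 and 8.99 CPM, within the siCONTROL range. Tm7sf2 shares 12.1% of its exonic bases with Vps51 on the same strand, and Vps51 did not pass the test in any of the comparisons with siCONTROL.

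Pmvk, phosphomevalonate kinase, fell from 48.8, 27.0 and 24.2 CPM to 20.0, 15.9 and 17.7 CPM after siCCNF (-0.90 ± 0.21, edgeR adjusted p = 0.00307). Its groups did not overlap, but the first siCONTROL library was far above the other two, and without it the change was -0.52. Sqle, squalene epoxidase and a rate-limiting enzyme of the pathway, fell by 0.46 on the log2 scale, Nsdhl by 0.46 and Msmo1, a methylsterol oxidase, by 0.42. Nsdhl was at -0.29 and Msmo1 at -0.21 without the first siCONTROL library, both still past the threshold. Ebp, the sterol isomerase, moved the other way. It was at 37.6, 37.4 and 34 CPM in siCONTROL, at 31.7, 33.1 and 30.1 CPM after siKEAP1 and at 52.9, 58.2 and 52.0 CPM after siCCNF, where all 3 libraries were above all libraries of the first 2 groups (0.58 ± 0.09 against siCONTROL, edgeR adjusted p = 0.000109).

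Several of the siCCNF calls were lost without the first siCONTROL library. Fdps (-0.72), Lss (-0.37), Idi1 (-0.31) and Fdft1 (-0.30) fell in the fit of all 12 libraries. None of the 4 passed without that library, so that 6 of 18 sterol genes then fell and 2 rose, Ebp and Mvd. With all 12 libraries 25.5% of all genes tested fell and 22.5% rose, and the shares without that library are not given here. Fdps was at 3.27 CPM in that library, between 3.42 and 2.70 CPM in the other siCONTROL libraries. Its call was also lost without the second siCONTROL or the first or second siCCNF library. The calls for Lss, Idi1 and Fdft1 were also lost without other single libraries. Among these losses and those above, the highest edgeR adjusted p was 0.152 for Idi1, 0.130 for Fdft1, 0.0783 for Fdps and 0.061 for Lss. The call for Msmo1 was lost without the third siCCNF library (adjusted p = 0.0582). Fdft1, squalene synthase, shares 18.3% of its exonic bases with Ctsb on the opposite strand. Whether strand was used in counting is not given in the sources used here, and Ctsb rose by 0.72 on the log2 scale after siCCNF.

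With both adaptors depleted, 9 sterol enzymes fell and 1 rose against siCONTROL, where 23.6% of all genes tested fell and 20.6% rose (median -0.28 over the branch, and -0.15 without the first siCONTROL library). The 1 that rose was Ebp (52.1, 48.7 and 60.1 CPM, log2 fold change 0.56 ± 0.09). Fdps (1.23, 1.54 and 1.67 CPM, log2 fold change -1.08 ± 0.25, edgeR adjusted p = 0.00318), Pmvk (18.1, 19.2 and 21.5 CPM, -0.77 ± 0.21) and Tm7sf2 (6.11, 5.76 and 5.49 CPM, -0.76 ± 0.17) changed most, and none of them overlapped with siCONTROL. Acat2 (-0.69), Sqle (-0.53), Msmo1 (-0.51), Nsdhl (-0.40), Hmgcs1 (-0.29) and Sc5d (-0.29) also fell. The call for Hmgcs1 (edgeR adjusted p = 0.0391) was lost without the first siCONTROL library or any 1 of the 3 siKEAP1/siCCNF libraries, with an adjusted p of 0.0606 to 0.120, and that for Nsdhl without the second siKEAP1/siCCNF library (0.0511). The changes of Pmvk, Msmo1 and Nsdhl were -0.39, -0.31 and -0.23 without the first siCONTROL library, each past the threshold. Without the third siKEAP1/siCCNF library Hsd17b7 rose by 0.27 against siCONTROL (edgeR adjusted p = 0.021), and by 0.22 after siCCNF (adjusted p = 0.0299).

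The comparisons with siCONTROL share their control libraries, so the calls are given side by side only. Acat2 and Fdps were lower in all 3. Mvk, Cyp51, Hsd17b7 and Dhcr7 were called lower after siKEAP1 and in neither of the others. Pmvk, Sqle, Tm7sf2, Msmo1 and Nsdhl were called lower after siCCNF and siKEAP1/siCCNF and not after siKEAP1. Mvd, mevalonate diphosphate decarboxylase, was called in none (log2 fold changes 0.029, 0.33 and 0.37). It was at 20.6 CPM in the first siCONTROL library and at 13.1 and 11.1 CPM in the other two, and without that first library it rose in all 3 comparisons, by 0.33, 0.64 and 0.68 on the log2 scale (edgeR adjusted p = 0.0441, 0.00055 and 0.000402).

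**Figure D2:**
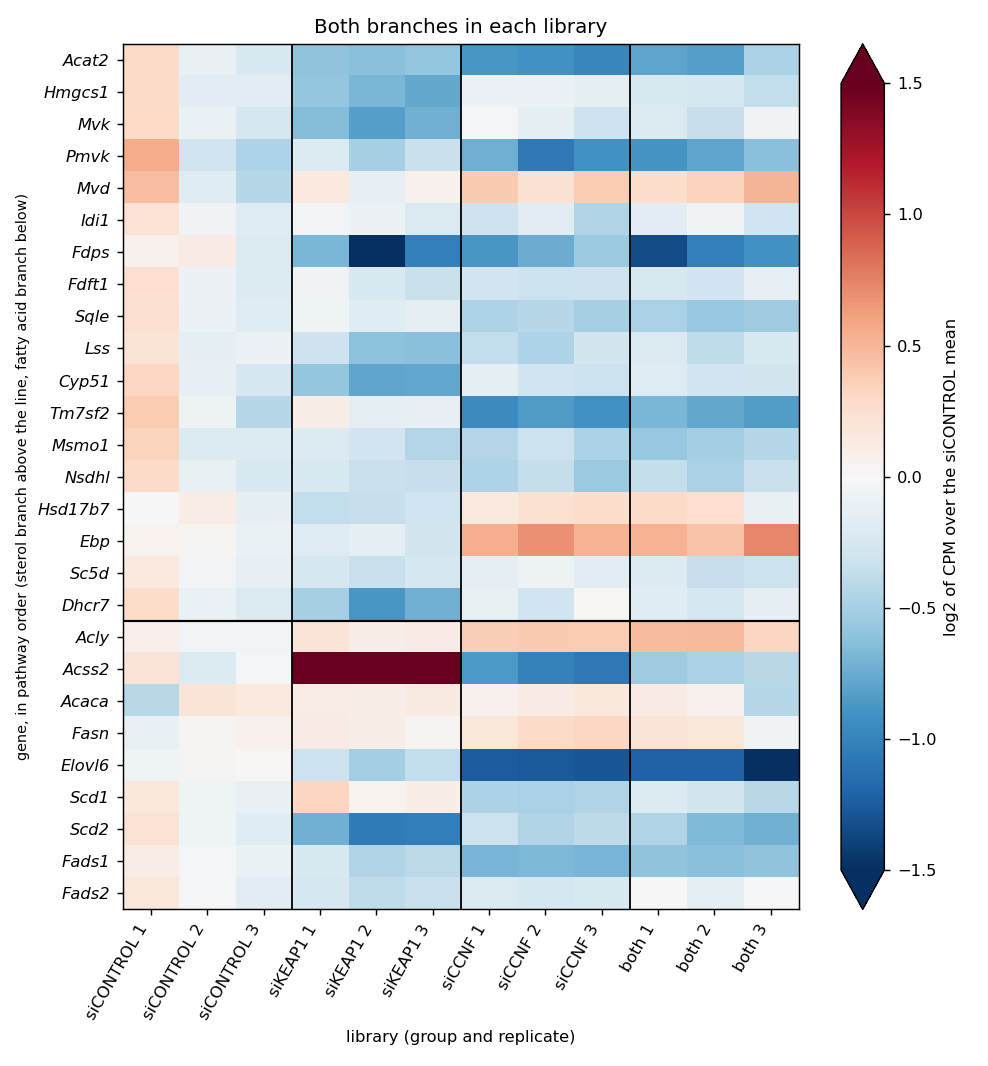
Log2 of the CPM of each sterol enzyme (above the line) and fatty acid enzyme (below) in each of the 12 libraries, relative to the siCONTROL mean of that gene. Values beyond 1.5 in either direction take the end colour. The first siCONTROL library is above its group mean for most sterol enzymes, the siKEAP1 libraries are lowest for Mvk, Cyp51 and Dhcr7, and Elovl6 is lowest in the siCCNF and siKEAP1/siCCNF libraries.

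In the fatty acid branch the enzymes did not move together after siKEAP1. Of 9 genes, 4 fell and 1 rose in edgeR's test, beside 20.2% and 20.4% of all genes tested. Scd2, Elovl6, Fads1 and Fads2 fell, all of which lengthen or desaturate finished chains. Scd1, also a desaturase, did not pass (log2 fold change 0.16, edgeR adjusted p = 0.174). Acly, Acaca and Fasn, the enzymes that make malonyl-CoA from citrate and build palmitate, did not pass the test, with log2 fold changes of 0.14, 0.11 and 0.089. Without the first siCONTROL library Acly (0.17, edgeR adjusted p = 0.0434) and Scd1 (0.24, adjusted p = 0.0346) also rose, so that 4 fell and 3 rose. The median over the branch was 0.089, -0.067 without that library, and -0.32 without Acly and Acss2, which supply acetyl-CoA to both branches.

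Acss2, the synthetase that makes acetyl-CoA from acetate (chr2:155517948-155585724 on GRCm38), changed most. It was at 17.2, 13.0 and 14.8 CPM in siCONTROL and at 67.3, 65.0 and 64.5 CPM after siKEAP1, an increase of 4.37-fold (log2 fold change 2.13 ± 0.10, edgeR adjusted p = 4.71e-09). After siCCNF it was at 8.24, 7.43 and 7.11 CPM (-0.98 ± 0.10, edgeR adjusted p = 4.96e-06) and after siKEAP1/siCCNF at 10.4, 10.7 and 11.2 CPM (-0.48 ± 0.10, edgeR adjusted p = 0.00174). All siKEAP1 libraries were above, and all siCCNF and siKEAP1/siCCNF libraries below, every siCONTROL library. Acss2 shares 395 of its 10163 exonic bases with Gss, the glutathione synthetase gene on the opposite strand, and the log2 fold change of Gss was 1.42 with siKEAP1, 0.013 with siCCNF and 0.15 with both. It also shares 197 bases with Ggt7, again on the opposite strand, whose log2 fold changes were 0.70, 0.35 and 0.50. The part of reads from either neighbour in the Acss2 values was not tested.

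Scd2 was at 2114, 1732 and 1599.9 CPM in siCONTROL and at 1102, 877 and 886 CPM after siKEAP1 (-0.93 ± 0.12, edgeR adjusted p = 2.94e-05). Without overlap, it stood at 1449, 1328 and 1383 CPM after siCCNF (-0.39 ± 0.11, edgeR adjusted p = 0.0132) and at 1329.6, 1149 and 1104 CPM after siKEAP1/siCCNF (-0.60 ± 0.11, edgeR adjusted p = 0.000821). The siCCNF call for Scd2 was lost without the second siCCNF library (adjusted p = 0.0521). Because Scd2 holds so many of the reads, it sets the summed level of the branch. The 9 genes together had 2892 to 3484 CPM in siCONTROL and 2201 to 2582 CPM after siKEAP1, whereas without Scd2 the sums were 1292 to 1370 CPM and 1324 to 1480.0 CPM. Its paralog Scd1, which lies 87.6 kb away on chromosome 19, had 479, 411 and 397 CPM in siCONTROL and 538, 445 and 457 CPM after siKEAP1, which overlap (log2 fold change 0.16 ± 0.09, edgeR adjusted p = 0.174, and 0.0346 without the first siCONTROL library). Scd1 fell after siCCNF to 308, 305 and 313 CPM (-0.48 ± 0.09, edgeR adjusted p = 0.000747). How reads common to both paralogs were assigned is not given in the sources used here.

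Elovl6, the elongase that extends palmitate, was the fatty acid gene with the largest fall after siCCNF and after siKEAP1/siCCNF. Its levels were 126, 136 and 134 CPM in siCONTROL, 106, 92.7 and 102 CPM after siKEAP1, 55.4, 55.3 and 54.4 CPM after siCCNF and 57.1, 57.1 and 45.1 CPM after siKEAP1/siCCNF. The 3 depleted groups all lay below siCONTROL, and both groups with siCCNF lay below siKEAP1. The log2 fold changes against siCONTROL were -0.39 ± 0.09, -1.26 ± 0.09 and -1.31 ± 0.09 (edgeR adjusted p = 0.00284, 1.65e-07 and 1.54e-07). Fads1, a desaturase of polyunsaturated fatty acids, had 169, 155 and 147 CPM in siCONTROL, 134, 115 and 119 CPM after siKEAP1, 96.7, 98.6 and 97.0 CPM after siCCNF and 103, 102 and 103 CPM after siKEAP1/siCCNF. It fell in each comparison (log2 fold changes -0.36, -0.69 and -0.61, SE 0.07 in each) without overlap. Fads2, its neighbour 81.4 kb away and the desaturase that acts before it, fell by 0.32 after siKEAP1 and by 0.23 after siCCNF, and was at -0.056 after siKEAP1/siCCNF. The siCCNF call for Fads2 was lost without any 1 of 5 libraries, namely the first or second siCONTROL or any siCCNF library, with an edgeR adjusted p of up to 0.111.

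After siCCNF, 6 of 9 fatty acid genes fell (Elovl6, Acss2, Fads1, Scd1, Scd2 and Fads2) and 2 rose (Acly and Fasn), beside 25.5% and 22.5% of all genes tested, with a median of -0.39 (-0.26 without the first siCONTROL library). Acly, ATP citrate lyase, went from 184, 169 and 169.7 CPM to 225, 228 and 227 CPM (0.38 ± 0.06, edgeR adjusted p = 0.000251), and all siCCNF libraries were above all siCONTROL libraries. Fasn, fatty acid synthase, rose by 0.26 ± 0.08 on the log2 scale (edgeR adjusted p = 0.0130, and 0.0539 without the third siCCNF library). With both siRNAs 5 fell (Elovl6, Fads1, Scd2, Acss2 and Scd1) and Acly rose (0.43 ± 0.06), beside 23.6% and 20.6% of all genes tested, with a median of -0.29. The call for Scd1 in siKEAP1/siCCNF (-0.29) was lost without the third library of that group (edgeR adjusted p = 0.0528). Acaca, acetyl-CoA carboxylase, was called in no comparison and was at 57.9 CPM in the first siCONTROL and 57.2 CPM in the third siKEAP1/siCCNF library, against 80.6 to 88.0 CPM in the 10 others. Those are the 2 libraries whose deviations fell with gene length.

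Of the 4 sterol-sensing genes, 2 fell and 1 rose after siKEAP1, where 20.2% of all genes tested fell and 20.4% rose. In either group with siCCNF, 3 of 4 fell and 1 rose, where 25.5% and 22.5% of all genes did so with siCCNF alone and 23.6% and 20.6% with both. Insig1, whose product holds SCAP in the endoplasmic reticulum and which is itself a target of SREBPs (chr5:28071363-28078662 on GRCm38), was at 94.1, 59.7 and 54.4 CPM in siCONTROL and at 44.8, 38.5 and 40.3 CPM after siKEAP1. It was at 38.7, 35.8 and 31.1 CPM after siCCNF and at 26.7, 26.7 and 24.9 CPM after siKEAP1/siCCNF, which was below every library of the other groups. The log2 fold changes were -0.75 ± 0.16, -0.98 ± 0.16 and -1.41 ± 0.17 (edgeR adjusted p = 0.00247, 0.000289 and 1.83e-05). The first siCONTROL library was the farthest from its group, and without it the changes were -0.48, -0.70 and -1.14, each still past the threshold. Between siKEAP1/siCCNF and siKEAP1, Insig1 fell by 0.66 on the log2 scale (edgeR adjusted p = 0.00523).

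Srebf2, the precursor that mainly serves sterol genes, had 469, 469.8 and 442 CPM in siCONTROL, 389.9, 358 and 364 CPM after siKEAP1, 327, 325 and 316 CPM after siCCNF and 326, 306 and 300 CPM after siKEAP1/siCCNF. It fell in each comparison without overlap, by 0.31, 0.51 and 0.57 on the log2 scale (SE 0.06 in each, edgeR adjusted p = 0.000858, 1.2e-05 and 5.77e-06). Srebf1, the precursor that mainly serves fatty acid genes, was at 321, 249 and 235 CPM in siCONTROL and at 270.3, 223 and 217 CPM after siKEAP1, which overlap (-0.18 ± 0.11, edgeR adjusted p = 0.230). It fell to 178, 171 and 175 CPM after siCCNF (-0.62 ± 0.11, edgeR adjusted p = 0.000535) and to 195, 173 and 193 CPM after siKEAP1/siCCNF (-0.52 ± 0.11, edgeR adjusted p = 0.00205). Scap, the escort, rose instead. Its libraries were at 64.4, 68.3 and 68.3 CPM in siCONTROL, 83.3, 86.4 and 93.1 CPM after siKEAP1, 82.1, 86.7 and 87.1 CPM after siCCNF and 95.6, 93.9 and 103 CPM after siKEAP1/siCCNF. The log2 fold changes of Scap were 0.39, 0.35 and 0.54 (SE 0.07 in each), and no depleted library overlapped with siCONTROL.

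The 2 genes of cholesterol transport moved apart. Stard4, a carrier that shuttles cholesterol between membranes, was at 63.2, 52.2 and 51.1 CPM in siCONTROL and at 57.6, 50.8 and 52.3 CPM after siKEAP1 (-0.052 ± 0.12, edgeR adjusted p = 0.766). It fell to 36.5, 35.8 and 30.4 CPM after siCCNF (-0.70 ± 0.12, edgeR adjusted p = 0.000398) and to 39.4, 38.5 and 29.1 CPM after siKEAP1/siCCNF (-0.64 ± 0.12, edgeR adjusted p = 0.000891), below all siCONTROL libraries in both. Abca1, which exports cholesterol to lipid-poor apolipoproteins (chr4:53030787-53159895 on GRCm38), rose in all 3 comparisons. It went from 3.86, 6.46 and 7.51 CPM in siCONTROL to 39.9, 35.3 and 37.3 CPM after siKEAP1 and to 19.4, 23.7 and 25.9 CPM after siCCNF. After siKEAP1/siCCNF it was at 36.7, 37.4 and 18.7 CPM, where the third library is the low one, and no depleted library overlapped with siCONTROL. The log2 fold changes were 2.66 ± 0.27, 1.96 ± 0.27 and 2.39 ± 0.27, or 6.34-fold, 3.89-fold and 5.25-fold (edgeR adjusted p = 4.24e-06, 5.04e-05 and 1.05e-05).

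Beyond a 2-fold difference few members were left, as were few of all genes tested. After siKEAP1 these were Abca1, Acss2 and Fdps, 3 of 33, where 11.5% of all genes tested passed in either direction. After siCCNF they were Abca1 and Elovl6, 2 of 33 (11.4% of all genes), and after siKEAP1/siCCNF Abca1, Elovl6, Fdps and Insig1, 4 of 33 (10.3%).

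**Figure D3:**
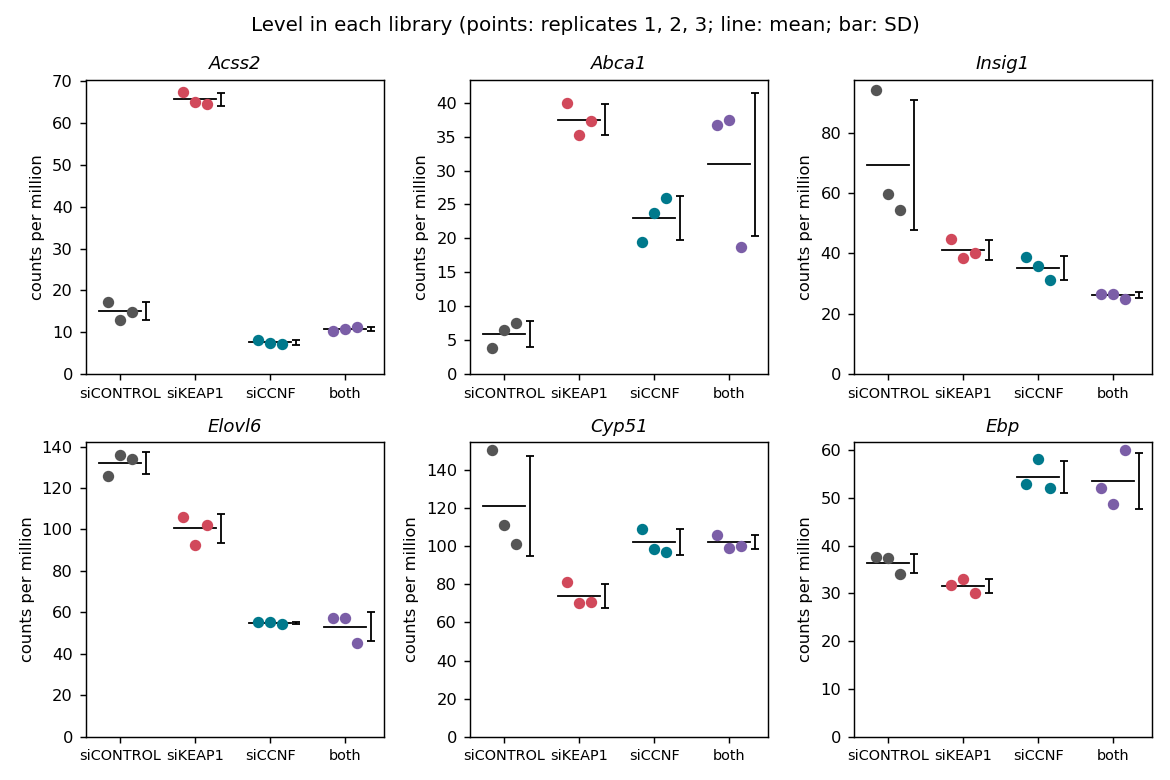
CPM of 6 members in each of the 12 libraries, by group ("both" is siKEAP1/siCCNF), with the mean as a line and the SD as a bar. Acss2 is high only in the 3 siKEAP1 libraries, Abca1 is above siCONTROL in every depleted library, Insig1 is lowest in the siKEAP1/siCCNF libraries, Elovl6 and Ebp split the libraries by siCCNF, and Cyp51 is lowest after siKEAP1.

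In CCNF-depleted cells, 1 of 33 members was called with siKEAP1, in a comparison where few genes of any kind were called. Between siKEAP1/siCCNF and siCCNF, Acss2 rose by 0.50 ± 0.10 on the log2 scale (edgeR adjusted p = 0.0130) and 32 of 33 members were not called, where 3.0% of all genes tested rose and 2.19% fell. The Acss2 call was lost without the second or the third siCCNF library (adjusted p of 0.0738 at most). No sterol enzyme was called, and none had an unadjusted p under 0.05. DESeq2 called 2 members, Acss2 and Scap, and limma 0, and neither called a sterol enzyme. Without the first siCONTROL library Insig1 also fell (-0.44, edgeR adjusted p = 0.00744), and without the third siKEAP1/siCCNF library Abca1 also rose (0.68 in place of 0.43, adjusted p = 0.0465). Keap1 was itself reduced less in the double depletion, to 27.5% against 14.4% of siCONTROL, and the part of that difference in these results was not tested.

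The same question was put as a test of the interaction, in which the siKEAP1 effect in control cells is subtracted from that in CCNF-depleted cells. It was positive for 6 of 18 sterol enzymes and negative for 0, where it was positive for 10.6% and negative for 10.5% of all genes tested. None was negative at an unadjusted p under 0.05, and DESeq2 and limma called 0 negative. The branch median was 0.33, beside 0.011 over all genes, and 0.18 without the first siCONTROL library. The 6 were Acat2 (0.84 ± 0.17, edgeR adjusted p = 0.00394), Cyp51 (0.71 ± 0.17, adjusted p = 0.01), Mvk (0.68 ± 0.19, adjusted p = 0.0200), Dhcr7 (0.62 ± 0.18, adjusted p = 0.0289), Lss (0.60 ± 0.16, adjusted p = 0.0148) and Hmgcs1 (0.50 ± 0.15, adjusted p = 0.0279). The siKEAP1 effect on Cyp51 was thus -0.71 in control cells and 0.002 in CCNF-depleted cells, where the values were 109, 98.2 and 97.1 CPM after siCCNF and 106, 99.1 and 99.9 CPM after siKEAP1/siCCNF. For Mvk these values were 34.8, 32.1 and 28.4 CPM and 30.4, 27.6 and 34 CPM, for Dhcr7 31.4, 27.7 and 34.5 CPM and 29.9, 28.3 and 30.8 CPM, and all of them lay above every siKEAP1 library. Hmgcs1 had 139, 139 and 135 CPM after siCCNF and 126, 124 and 115 CPM after siKEAP1/siCCNF, and Lss had 31.1, 29.0 and 33.2 CPM and 34.6, 30.9 and 34.2 CPM. For Acat2, siCCNF alone had already lowered the level below that after siKEAP1, and siKEAP1/siCCNF was at 37.7, 36.6 and 46.7 CPM.

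The calls for Acat2, Cyp51 and Lss were kept whichever 1 library was left out. The other 3 were lost without the second siKEAP1 library. The call for Mvk was also lost without the third siCCNF library. That for Dhcr7 was lost without the second or the third siKEAP1, the first or second siCCNF or the first siKEAP1/siCCNF library. That for Hmgcs1 was lost without the second or the third siKEAP1, the second or the third siCCNF or the first or second siKEAP1/siCCNF library. The edgeR adjusted p values of these losses ran from 0.052 to 0.0791, and the interaction kept its sign in each.

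In the fatty acid branch the interaction was positive for Scd2 (0.71 ± 0.16, edgeR adjusted p = 0.00725), Fads2 (0.50 ± 0.11, adjusted p = 0.00769) and Fads1 (0.43 ± 0.10, adjusted p = 0.00691) and negative for Acss2 (-1.62 ± 0.14, adjusted p = 1.03e-05). Fads2 had 105, 92.5 and 83.0 CPM in siCONTROL, 78.8, 72.0 and 74.1 CPM after siKEAP1, 80.3, 78.5 and 80.0 CPM after siCCNF and 93.6, 85.1 and 91.3 CPM after siKEAP1/siCCNF. Its double-depleted libraries were thus above those of either single depletion. Among the others, Srebf2 had a positive interaction (0.26 ± 0.08, adjusted p = 0.0433), which was lost without any 1 of 8 libraries, namely the second siCONTROL, the second or the third siKEAP1, any siCCNF or the first or second siKEAP1/siCCNF library (edgeR adjusted p of up to 0.118), and Abca1 a negative one (-2.23 ± 0.35, adjusted p = 0.000689). Abca1 rose with either siRNA alone and the double depletion did not add the 2 changes up. Without any 1 library the value for Abca1 lay between -2.44 and -1.97, the latter without the third siKEAP1/siCCNF library. Elovl6 (0.34 ± 0.12, edgeR adjusted p = 0.0708) and Insig1 (0.32 ± 0.23, adjusted p = 0.373) did not pass. Elovl6 passed without the first siCONTROL library (0.38, edgeR adjusted p = 0.0472) and without the third siKEAP1/siCCNF library (0.45, adjusted p = 0.0045), and Hsd17b7 passed without the latter (0.40, adjusted p = 0.0265).

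**Figure D4:**
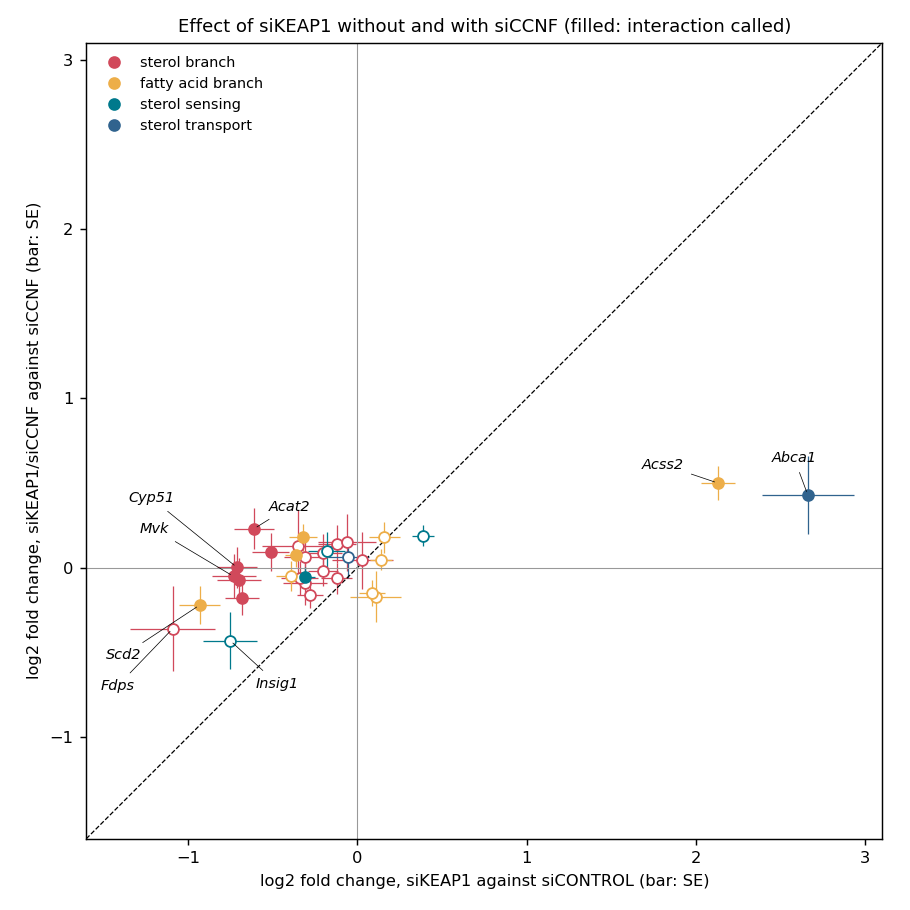
Log2 fold change after siKEAP1 in control cells (horizontal axis) against that in CCNF-depleted cells (vertical axis) for the 33 members, with SE bars. The 2 axes share no library, the dashed line marks equal effects, filled points passed the test of the interaction, and the points spread from -1.09 to 2.66 on the horizontal axis but only from -0.43 to 0.50 on the vertical axis.

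The reverse comparison gives the effect of siCCNF in KEAP1-depleted cells. Between siKEAP1/siCCNF and siKEAP1, 6 sterol enzymes rose (Ebp, Mvk, Dhcr7, Hsd17b7, Cyp51 and Hmgcs1) and 2 fell (Tm7sf2 and Sqle), where 24.1% of all genes tested rose and 26.9% fell. The log2 fold changes of those that rose were 0.76, 0.53, 0.50, 0.49, 0.46 and 0.40, and those of Tm7sf2 and Sqle were -0.70 and -0.40. Without the first siCONTROL library, which is in neither group, Mvd (0.35) and Lss (0.24) also rose and Pmvk (-0.42) and Msmo1 (-0.19) also fell (edgeR adjusted p = 0.01, 0.0347, 0.00416 and 0.0381). Scap also rose then (0.16, adjusted p = 0.036). In the fatty acid branch Acly (0.29), Scd2 (0.32) and Fads2 (0.26) rose and Acss2 (-2.61), Elovl6 (-0.92), Scd1 (-0.46) and Fads1 (-0.26) fell. Acss2 thus went from 64.5 to 67.3 CPM down to 10.4 to 11.2 CPM, a 6.09-fold difference (edgeR adjusted p = 1.25e-09). The calls for Scd2 and Fads2 were lost without the second siKEAP1 or the first siKEAP1/siCCNF library, and that for Scd2 also without the third siKEAP1 library (edgeR adjusted p of up to 0.129 and 0.0592). Insig1 (-0.66), Srebf1 (-0.34), Srebf2 (-0.25) and Stard4 (-0.59) fell, and Abca1 (-0.27 ± 0.23, edgeR adjusted p = 0.351) was not called. The call for Srebf1 was lost without the first siKEAP1 or the second siKEAP1/siCCNF library (adjusted p of 0.0828 and 0.111).

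Other genes of the pathways were counted on 3 lists, beside the shares of all genes given above. Of 16 other sterol genes, 5 rose and 3 fell after siKEAP1, 3 rose and 7 fell after siCCNF, and 0 rose and 6 fell after siKEAP1/siCCNF (1 higher at an unadjusted p under 0.05, and 0 in DESeq2 and limma). After siKEAP1 the largest changes on this list were those of Nr1h3 (2.00 ± 0.22), which encodes a liver X receptor, Npc2 (0.51), Aacs (-0.83 ± 0.08), which makes acetoacetyl-CoA for the same pathway, and Tmem97 (-0.58). Nr1h3 was at 2.20, 2.01 and 1.59 CPM in siCONTROL, at 8.41, 7.90 and 6.89 CPM after siKEAP1, at 2.02, 2.41 and 1.5 CPM after siCCNF and at 1.94, 1.82 and 2.81 CPM after siKEAP1/siCCNF. It was thus high in the siKEAP1 libraries alone. Nr1h2, the other liver X receptor gene, had means of 62.8, 78.9, 62.4 and 68.3 CPM in these groups in that order. Its log2 fold change after siKEAP1 was 0.33 (edgeR adjusted p = 0.00102). Receptor activity was not measured, and the part of these receptors in the Abca1 values was not tested. After siCCNF, Ggps1 (0.23) and Mbtps1 (0.20) rose most, and Abcg1 (-0.92), another sterol exporter, and Insig2 (-0.75), the second INSIG gene, fell most. After siKEAP1/siCCNF, Abcg1 (-0.76) and Tmem97 (-0.56) fell most. Insig2 changed by 0.50 after siKEAP1, in the direction opposite to Insig1, and by -0.55 after siKEAP1/siCCNF.

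Of 16 other fatty acid genes, 6 rose and 2 fell after siKEAP1, 0 rose and 5 fell after siCCNF, and 2 rose and 3 fell after siKEAP1/siCCNF. No gene of this list was higher after siCCNF at an unadjusted p under 0.05 in edgeR, and DESeq2 and limma called 0 higher. Me1, malic enzyme, which supplies NADPH and is a known target of NRF2, changed by 0.97 ± 0.05 after siKEAP1 and 0.57 ± 0.05 after siKEAP1/siCCNF. Lpin1 changed by 0.81 after siKEAP1 and by -0.52 with both siRNAs, Dgat1 by -0.25 after siKEAP1, Acacb by -0.79 after siCCNF and Slc25a1, the citrate carrier, by 0.32 with both. Acsl4, which activates polyunsaturated fatty acids, fell in each comparison (-1.18, -1.44 and -2.05). Of 13 genes of fatty acid oxidation, 7 rose and 0 fell after siKEAP1 (1 lower at an unadjusted p under 0.05, and 0 in DESeq2 and limma), and 2 rose and 5 fell both after siCCNF and after siKEAP1/siCCNF. Cpt1a, which admits fatty acids to mitochondria, rose by 1.10 ± 0.16 after siKEAP1. In the groups with siCCNF, Slc25a20 (0.49 and 0.74) and Decr1 (0.30 and 0.22) rose most and Etfa (-0.81 and -0.69) and Hadhb (-0.70 and -0.65) fell most.

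Markers of other cell states moved with these groups. Beside the falls in sterol enzymes, the summed level of the 7 markers of differentiating muscle was 71.7 to 158 CPM in siCONTROL, 3.81 to 4.37 after siKEAP1, 23.8 to 34.5 after siCCNF and 12.4 to 14.9 after siKEAP1/siCCNF. The 5 myoblast markers summed to 1104 to 1311 CPM in siCONTROL, 630.2 to 666 after siKEAP1, 527 to 533 after siCCNF and 503 to 584 after siKEAP1/siCCNF. Beside the changes in the fatty acid branch, 2 of 3 tested adipocyte markers rose after siKEAP1, Pparg by 1.69 on the log2 scale to 27.2 to 31.7 CPM and Fabp4 to 2.15 to 3.32 CPM. The third, Cebpa, was not called after siKEAP1 (log2 fold change 0.037) and fell after siCCNF (-1.31) and siKEAP1/siCCNF (-0.88). Fabp4 was also called higher with both siRNAs (1.63, edgeR adjusted p = 0.0457). That call rests on few reads, with at most 8 counts in a siKEAP1/siCCNF library and at most 2 in a siCONTROL library. Macrophage markers summed to 1.16 to 2.12 CPM in siCONTROL, 5.67 to 10.7 after siKEAP1, 2.05 to 3.46 after siCCNF and 2.42 to 4.09 with both, groups in which Abca1 also rose. Of the macrophage markers only Cd68 rose, in each comparison (log2 fold changes 2.9, 1.25 and 1.55). Csf1r was called in none of them (-0.48, -0.1 and -0.23). Ptprc and Adgre1 had 3 counts or fewer in every library, and endothelial markers summed to at most 1.38 CPM. The part of these cell states in the results was not tested.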

How the data were processed

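RNA was sequenced from 12 C2C12 libraries, 3 in each of 4 groups. The deposited table gives the counts per gene made by the authors (poly(A) RNA; library preparation, sequencing and analysis by Novogene), beside the deposited FPKM, which the authors scaled to library size and gene length. The submitters' processing notes name HISAT2 and GRCm39, but 98.3% of the gene positions in the table are those of GENCODE M21 on GRCm38, so coordinates are on GRCm38. The counting tool, its use of strand and its treatment of multi-mapped reads are not given in the sources used here. The table also holds fold changes and p-values of the authors' own comparisons, which were not used.

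Counts were tested with edgeR 4.0.16 (R 4.3.3) by the quasi-likelihood test, after filterByExpr and TMM scaling, with 4 group means fitted on all 12 libraries. This kept 15122 genes, over which p-values were adjusted by Benjamini-Hochberg, and an adjusted p under 0.05 is called a change. The shares of all genes called are from this fit, and those of fits that leave libraries out are not given here. CPM were taken from TMM-scaled library sizes. The interaction is the siKEAP1 effect in CCNF-depleted cells minus that in control cells. FPKM were used for levels between genes and, as log2(FPKM + 1), in a limma 3.58.1 alternative. Other alternatives were DESeq2 1.42.0, total library sizes, other filters, a replicate block, leaving out libraries, and only the libraries compared. The fits were tested on simulated data. These held no outlying library and no deviation with gene length, so that test does not bear on either. Total counts were 18464209 to 37743198 per library, and counting precision is lowest for Fdps, Abca1 and Tm7sf2. The labels call the libraries biological replicates without naming separate cultures, so the p-values measure the spread between these libraries.

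Every member is named. Values in every library are given for the sterol-sensing and transport genes, the 3 genes per branch with the largest change in each comparison with siCONTROL and those called in the interaction. From the 3 lists of other genes the 2 highest and 2 lowest called are named, except 1 that is not reported here. Mvd, Insig2, Nr1h2, Ebp, Acly, Acaca and Scd1 are described further for values seen in the data. The members, lists and the choice of the 2 libraries left out together were made with earlier results of these data known.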

Additional observations from a re-analysis of the deposited data

Results flagged for a closer look

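For 12 of the 33 members the effect of siKEAP1 differed between control cells and CCNF-depleted cells by the test of that difference in edgeR, which was positive for 10.6% and negative for 10.5% of all genes tested. Leaving out 1 library at a time, 8 to 14 members passed. The difference (log2, effect in CCNF-depleted cells minus effect in control cells) was positive for 10 members, Acat2 (0.84), Cyp51 (0.71), Scd2 (0.71), Mvk (0.68), Dhcr7 (0.62), Lss (0.60), Hmgcs1 (0.50), Fads2 (0.50), Fads1 (0.43) and Srebf2 (0.26), and negative for Abca1 (-2.23) and Acss2 (-1.62). All 10 positive members had fallen after siKEAP1 alone. The difference subtracts that same fall, so this match is partly built into the test. Keap1 stood at 14.4% of siCONTROL in the single depletion and at 27.5% in the double depletion, and the part of this in the differences was not tested. Single outlying libraries were not looked for by a formal rule, since each group has 3 libraries.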

How the results depend on the processing

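Of the 97 comparisons of a member called as changed, all 97 were called under DESeq2, total library sizes and a minimum of 10 counts, 95 without a filter and 95 by limma, and none reversed under any alternative. With the replicate block all 97 were called as well. Same-numbered libraries deviated together with correlations of only -0.268 to 0.204, so the numbers were not taken to pair the samples. Fits of the compared libraries only lost 8 of 85 calls, and leaving out single libraries lost 0 to 9 of 97. Why calls were lost was not tested.

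Over 2-fold, the called members numbered 3 after siKEAP1, 2 after siCCNF, 4 after siKEAP1/siCCNF, 1 between siKEAP1/siCCNF and siKEAP1, 0 between siKEAP1/siCCNF and siCCNF and 2 in the interaction. In that order the sterol branch had 1, 0, 1, 0, 0 and 0 and the fatty acid branch 1, 1, 1, 1, 0 and 1. Of all genes tested, 11.5%, 11.4% and 10.3% passed this limit in the 3 comparisons with siCONTROL. Such a share is not given here for the other comparisons or the interaction, so their counts cannot be judged against all genes. Without the first siCONTROL and the third siKEAP1/siCCNF libraries together, the fatty acid median was -0.067 after siKEAP1, -0.26 after siCCNF, -0.16 after siKEAP1/siCCNF and -0.012 between siKEAP1/siCCNF and siKEAP1, and the sterol interaction median was 0.18. The same setting called 13 sterol genes between siKEAP1/siCCNF and siKEAP1, and 5 members, 1 sterol and 2 fatty acid genes between siKEAP1/siCCNF and siCCNF. The share of all genes called in that setting is not given here, so these counts cannot be judged against it. Without Acly, Acss2 and Acat2 the fatty acid median was -0.32 after siKEAP1, 0.34 in the interaction and -0.05 between siKEAP1/siCCNF and siCCNF, where 0 were called. In that comparison DESeq2, no filter and the compared libraries only each called 2 members, and limma called 0, also of the fatty acid branch.

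Leaving out 1 library at a time, the fatty acid medians ran from -0.067 to 0.11 after siKEAP1, -0.47 to -0.26 after siCCNF, -0.26 to -0.012 between siKEAP1/siCCNF and siKEAP1 and -0.066 to 0.11 in the interaction. The sterol medians ran from -0.42 to -0.20 after siKEAP1, -0.39 to -0.17 after siCCNF, -0.36 to -0.15 after siKEAP1/siCCNF, -0.029 to 0.17 between siKEAP1/siCCNF and siKEAP1 and 0.18 to 0.43 in the interaction, where 3 to 7 sterol genes were called. Between siKEAP1/siCCNF and siCCNF, 0 to 2 members and 0 to 1 fatty acid genes were called. The few counts of Fdps, 3 libraries per group and reads shared with overlapping genes or paralogs limit these values.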
